A study of Mus musculus with 10 samples.

Results

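The proteasome genes of the mouse spinal cord were compared between mice given paclitaxel and mice given vehicle. Members were all genes of the table named Psma, Psmb, Psmc, Psmd, Psme, Psmf or Psmg followed by a number, which gave 48 of 24411 listed genes. Of these, 45 had enough reads to be tested, and Psma8, Psmb9 and Psmb11 did not. Paclitaxel is a microtubule-stabilising cancer drug that causes a painful peripheral neuropathy. Both groups were lumbar spinal cord, the part of the cord that receives input from the hind limbs, with 5 libraries from paclitaxel-treated mice and 5 from vehicle-treated mice. The labels give no strain, sex, age, dose or time after treatment. They also leave unsaid whether each library of a group came from its own animal, so a p-value here reflects the spread between libraries, which may be technical.

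The proteasome is the barrel-shaped protease that degrades ubiquitin-tagged proteins in every cell. Its 20S core is built from a ring of α subunits (Psma genes) on each side of rings of β subunits (Psmb genes), of which Psmb6, Psmb7 and Psmb5 carry the active sites. The 19S regulatory particle recognises, unfolds and feeds in substrates with its ATPases (Psmc genes) and non-ATPase subunits (Psmd genes). Interferon makes cells replace the catalytic subunits with Psmb9, Psmb10 and Psmb8, giving the immunoproteasome, and add the PA28 cap of Psme1 and Psme2, which changes the peptides available for MHC class I. In the central nervous system, immune subunits are known mainly from microglia and other immune or vascular cells, while neurons carry mostly the constitutive form.

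Promoters of 3 genes are printed because they belong to the pairs in which the immune and the constitutive subunit take the same place in the core. They are the bases upstream of the start site, 5′ to 3′ on the gene's own strand, from RefSeq on GRCm38.p6. Capitals mark matches to the motifs searched: TTCNNNGAA in Psmb8, TGACNNNGC in Psmb5 and, read on the other strand, CCAAT in Psmb9.
Psmb8, chr17:34197945-34198194, plus strand: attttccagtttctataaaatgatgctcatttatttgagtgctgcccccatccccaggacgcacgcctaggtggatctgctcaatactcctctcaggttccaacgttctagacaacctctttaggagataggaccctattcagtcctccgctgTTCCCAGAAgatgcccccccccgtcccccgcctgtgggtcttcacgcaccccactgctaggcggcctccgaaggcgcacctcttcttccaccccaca
Psmb5, chr14:54617996-54618245, minus strand: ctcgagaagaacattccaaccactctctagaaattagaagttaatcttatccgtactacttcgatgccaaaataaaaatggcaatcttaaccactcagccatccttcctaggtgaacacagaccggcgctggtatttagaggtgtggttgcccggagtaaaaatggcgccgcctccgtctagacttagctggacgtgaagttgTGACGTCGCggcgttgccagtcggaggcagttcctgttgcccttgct
Psmb9, chr17:34187331-34187555, minus strand: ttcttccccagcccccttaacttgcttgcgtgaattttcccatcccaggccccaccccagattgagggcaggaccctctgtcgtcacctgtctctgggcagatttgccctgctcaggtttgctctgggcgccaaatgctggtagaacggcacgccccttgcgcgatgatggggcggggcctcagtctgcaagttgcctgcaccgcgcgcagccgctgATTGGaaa

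The Psmb9 stretch of 225 bases is the whole interval up to the start site of Tap1, at position 34187556, which is transcribed the other way and encodes a subunit of the peptide transporter that supplies MHC class I. The genes Psmb9, Tap1, Psmb8 and Tap2 follow each other on chromosome 17, inside the MHC. Motifs were searched on both strands of 250 upstream bases, in 43 windows of 40 members. The core of the antioxidant response element is TGACNNNGC, read by the factor NFE2L1 that raises proteasome genes when the proteasome is inhibited. It was found in 5 of 40 members (Psmb5, Psmb6, Psmc6, Psmd12 and Psmd9) and in 10.2% of all 32851 windows. TTCNNNGAA, the pattern bound by STAT factors, was found in 2 of 40 members (Psmb8 and Psmg1) and in 7.02% of all windows. A pattern of the interferon-stimulated response element, a repeat of GAAA with 2 bases between, was found in 3 of 40 members. These were Psmb3, Psmd4 and Psmd9, beside 2.98% of all windows. CCAAT was found in 14 of 40 members, among them Psmb9, and in 33.8% of all windows. Counts of members and shares of windows are unlike measures, since a member can have more than 1 window, and their difference was not tested. A match is a run of letters and not a shown binding site.

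Depth was 3676259 to 5432072 total counts a library for paclitaxel and 4585899 to 7791594 for vehicle. In CPM, which scales counts to library size with TMM factors, 3 counts correspond to between 0.385 and 0.819. Lumbar Hox genes were detected in every library, at summed levels of 316 to 344 CPM after paclitaxel and 314 to 343 CPM after vehicle, while forebrain genes summed to 9.14 to 13.9 CPM after paclitaxel and 9.46 to 12.9 CPM after vehicle. Paclitaxel replicate 3 held 1221 CPM of glucocorticoid response genes, against 334 to 535 CPM in the other paclitaxel libraries and 347 to 715 CPM in the vehicle libraries. Vehicle replicate 4 held 106 CPM of meninges and fibroblast genes, against at most 69.9 CPM in every other library of either group. Of 8 heat shock genes, all were lower in value with paclitaxel, 4 at an unadjusted p under 0.05 (beside 3.12% of all tested genes) and 3 with groups that did not overlap (beside 0.625%), none at an edgeR adjusted p under 0.05 (lowest 0.79). Hspa1b, an inducible chaperone, was at 3.40 to 6.82 CPM after paclitaxel and 7.05 to 54.9 CPM after vehicle, with the highest value in vehicle replicate 4. The count of members reaching the threshold is also given without both libraries.

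Proteasome genes stood at nearly the same level in both groups. All 48 together summed to 3486 ± 51.5 CPM after paclitaxel and to 3484 ± 91.3 CPM after vehicle (SD, n = 5 each). In edgeR's quasi-likelihood test, adjusted over all 13287 tested genes with the Benjamini-Hochberg method, 0 of 45 members passed an adjusted p of 0.05, where the share of all tested genes that passed was 0%. At an unadjusted p under 0.05 there were 0 of 45 members, beside 6.07% of all tested genes (2.94% higher and 3.12% lower). DESeq2 and limma-voom called 0 members as well. The lowest p among members was 0.0509, for Psmc3 (adjusted p = 0.80). Without paclitaxel replicate 3 and vehicle replicate 4, 0 members reached an unadjusted p under 0.05, beside 3.78% of all tested genes.

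The log2 fold changes of members ran from -0.13 to 0.15, with a median of 0.014, beside a median of -0.0027 over all tested genes. There were 27 members higher and 18 lower in value, and 50.9% of all tested genes were lower. The groups overlapped in every tested member, whereas they did not overlap in 1.09% of all tested genes, 0.625% with the paclitaxel libraries lower. All 5 paclitaxel libraries lay below the vehicle mean for 1 member, Psmd4, and above it for 1 member, Psmc6, beside 8.65% and 6.71% of all tested genes. For 38 of 45 members the 95% interval of the fold change lay between 0.8-fold and its reciprocal, which was so for 7417 of the 13287 tested genes.

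**Figure D1:**
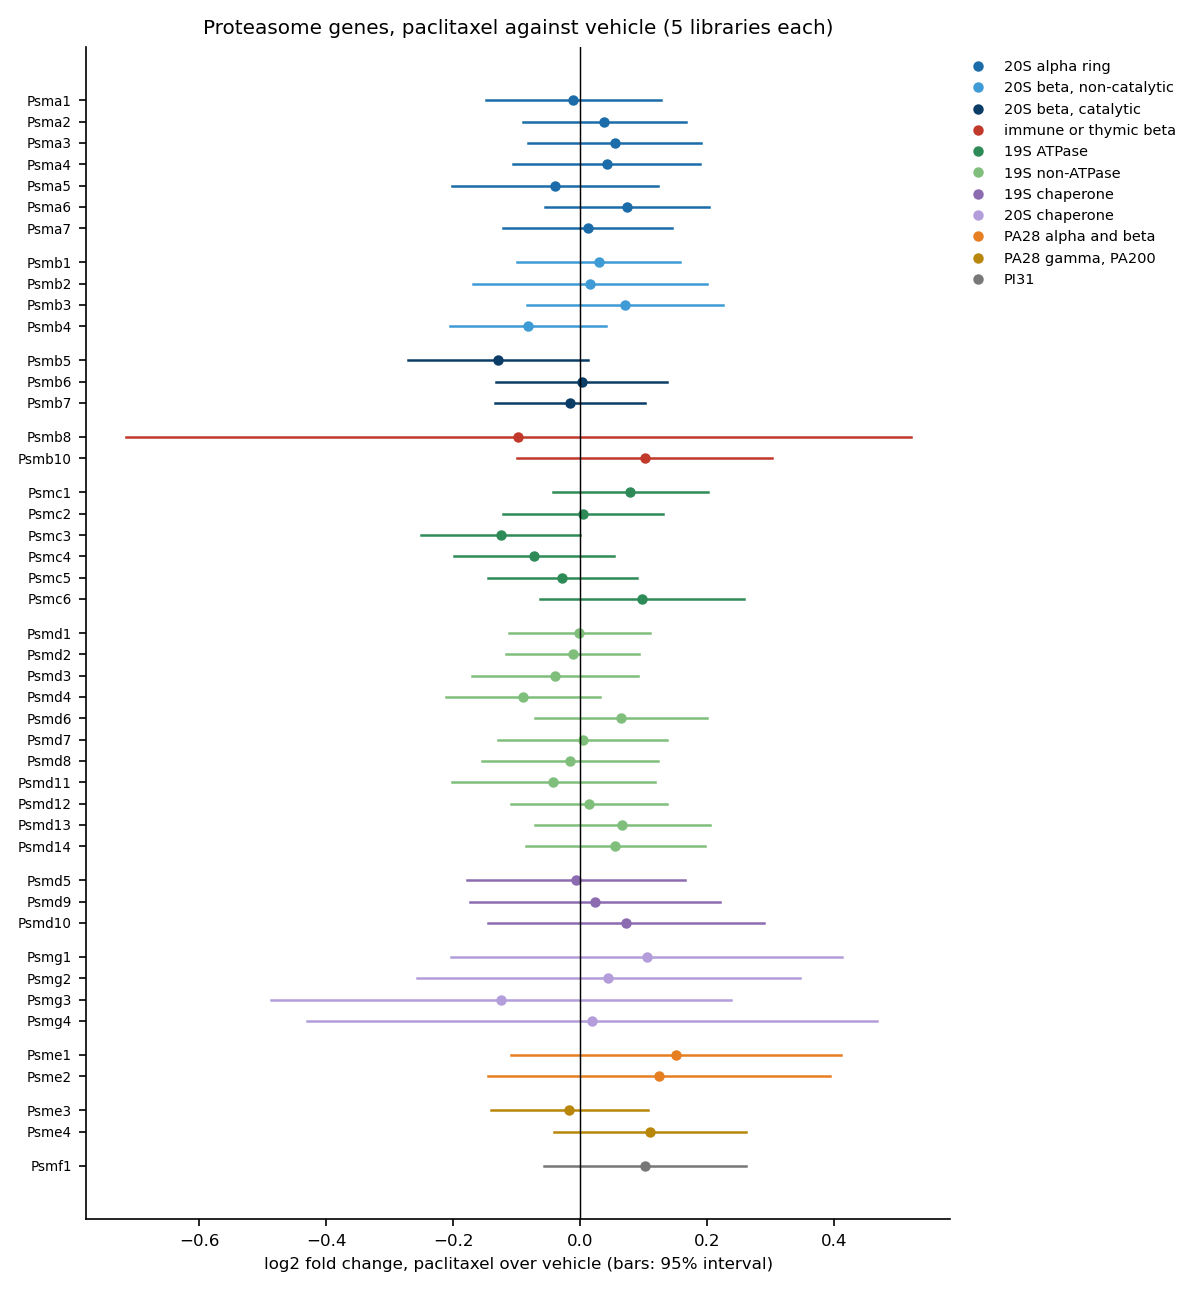
Log2 fold change of each of the 45 tested members, paclitaxel over vehicle, on the horizontal axis (points), with the 95% interval (bars), grouped and coloured by place in the complex. Values run from -0.13 to 0.15, every interval includes 0, and the widest belongs to Psmb8, whose interval runs from 0.609-fold to 1.44-fold.

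No subunit of the constitutive 20S core passed the test. Its 14 tested subunits had a median log2 fold change of 0.014, with 9 higher and 5 lower in value, and all 14 intervals lay between 0.829-fold and 1.17-fold. Of the 7 tested α subunits, 5 were higher and 2 lower in value, with a range from -0.04 to 0.07. The α subunit of lowest p was Psma6, at 87.2, 78.2, 86.6, 81.9 and 85.1 CPM after paclitaxel and 81.9, 75.6, 81.0, 76.2 and 82.9 CPM after vehicle. Its paclitaxel libraries 1, 3 and 5 were above all vehicle libraries, and the others fell among them (log2 fold change 0.07, SE 0.06, edgeR adjusted p = 0.85).

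Among the non-catalytic β subunits, Psmb4, which closes the β ring, had the lowest p. Psmb4 was at 109, 122, 114, 117 and 111 CPM after paclitaxel and at 112, 120, 121, 122 and 132 CPM after vehicle. Apart from replicate 2, the paclitaxel libraries lay below the mean of the vehicle group, and the groups overlapped (log2 fold change -0.08, SE 0.06, edgeR adjusted p = 0.83). Psmb1, Psmb2 and Psmb3 had log2 fold changes of 0.03, 0.02 and 0.07.

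Psmb5, the chymotrypsin-like subunit that proteasome inhibitors used against myeloma bind, had the lowest log2 fold change of all members. It was at 64.2, 64.5, 63.9, 64.1 and 75.1 CPM after paclitaxel and at 67.1, 75.6, 77.2, 72.7 and 71.3 CPM after vehicle. Paclitaxel replicates 1 to 4 lay below every vehicle library, and replicate 5 lay among them. The log2 fold change was -0.13 (SE 0.07, 95% interval 0.829-fold to 1.01-fold, edgeR unadjusted p = 0.0729, adjusted p = 0.80). It was -0.18 without paclitaxel replicate 5 (unadjusted p = 0.0162, adjusted p = 0.73), and -0.06 after a correction of each library for GC content and transcript length (unadjusted p = 0.35). The other catalytic subunits had values near 0. Psmb6, the caspase-like subunit, averaged 80.3 ± 5.08 CPM after paclitaxel and 80.1 ± 4.06 CPM after vehicle (SD over n = 5 in each, log2 fold change 0.0025). Psmb7, the trypsin-like subunit, averaged 128 ± 5.52 CPM after paclitaxel and 129.8 ± 6.52 CPM after vehicle (SD over n = 5 in each, log2 fold change -0.02).

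The immune β subunits were low in both groups, and neither tested one passed the test. Psmb8, the immune counterpart of Psmb5, was at 3.75, 6.29, 1.91, 1.09 and 3.12 CPM after paclitaxel and at 3.25, 4.19, 3.30, 3.26 and 3.85 CPM after vehicle. The paclitaxel libraries held both the highest value, in replicate 2, and the 3 lowest, and their SD was 2.00 CPM against 0.43 CPM after vehicle. These values rest on 4 to 34 counts a library with paclitaxel and 15 to 30 with vehicle. The log2 fold change was -0.10 (SE 0.30, edgeR adjusted p = 0.97), with -0.50 without paclitaxel replicate 2 (unadjusted p = 0.0883) and 0.09 without paclitaxel replicate 4. Its 95% interval ran from 0.609-fold to 1.44-fold, so changes of that size could not be told from none.

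Psmb9, the counterpart of Psmb6, was below the filter on low counts. It had 6, 5, 0, 1 and 5 counts in the paclitaxel libraries and 4, 12, 3, 5 and 5 counts in the vehicle libraries. Library totals differ, and on the depth-scaled scale the levels were 0.704 ± 0.563 CPM after paclitaxel and 1.04 ± 0.617 CPM after vehicle (SD, n = 5 each). With no filter on low counts its log2 fold change was -0.50 (edgeR unadjusted p = 0.33). Tap1, which faces it across the promoter printed above, was at 6.56, 7.39, 2.97, 3.82 and 3.49 CPM after paclitaxel and at 3.44, 6.64, 4.18, 4.12 and 4.61 CPM after vehicle.

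Psmb10, the counterpart of Psmb7, was the most abundant immune β subunit per length. It was at 22.7, 22.4, 21.2, 22.7 and 27.9 CPM after paclitaxel and at 21.0, 22.4, 23.3, 21.7 and 21.2 CPM after vehicle. Only paclitaxel replicate 5 stood above all vehicle libraries. The log2 fold change was 0.10 (SE 0.10, edgeR adjusted p = 0.86), and 0.02 without paclitaxel replicate 5.

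Both PA28 genes were a little higher in value with paclitaxel, within the spread between libraries. Psme1, the α subunit of this interferon-inducible cap, was at 15.9, 21.6, 21.0, 13.4 and 16.5 CPM after paclitaxel and at 14.1, 16.6, 14.7, 17.1 and 17.6 CPM after vehicle. Its paclitaxel replicates 2 and 3 lay above all vehicle libraries and replicate 4 below them all (log2 fold change 0.15, SE 0.13, edgeR adjusted p = 0.85). Without paclitaxel replicate 2 the log2 fold change was 0.07, and without replicate 4 it was 0.23. Psme2, the β subunit, was at 10.3, 14.97, 12.1, 11.7 and 15.8 CPM after paclitaxel and at 12.1, 11.2, 12.1, 12.2 and 12.6 CPM after vehicle. Replicates 2 and 5 of the paclitaxel group were the highest and replicate 1 the lowest of all libraries (log2 fold change 0.12, SE 0.13, edgeR adjusted p = 0.88). Without paclitaxel replicate 5 the log2 fold change was 0.04, without replicate 2 it was 0.07, and without replicate 1 it was 0.20. In 3 of 10 libraries the expected count of Psme2 was not whole. In all 3 its sum with the count of its copy Psme2b was whole to within 0.01, so the split between these genes is uncertain. In vehicle replicates 2 and 5 Psme2 was whole but Psme2b was not, at 9.84 and 9.93, and the sums were 73.84 and 107.93.

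Over the 4 tested immune genes the median log2 fold change was 0.11, with 3 higher and 1 lower in value. A library score, the mean over these genes of log2 CPM minus the vehicle mean, ran from -0.41 in replicate 4 to 0.38 in replicate 2 of the paclitaxel group and from -0.08 to 0.06 in the vehicle group. The low end in paclitaxel replicate 4 came mainly from Psmb8, on 4 counts. There the score was -0.68 for the tested immune β genes and -0.14 for the PA28 genes, and Psmb10 lay above its vehicle mean. In paclitaxel replicate 2 these scores were 0.40 and 0.37. The 0.40 also came mainly from Psmb8, on 34 counts, while Psmb10 was at 22.4 CPM beside a vehicle mean of 21.9 CPM. Markers of the cells that carry the immunoproteasome were read beside this. The summed level of 10 microglial genes was 296 to 397 CPM after paclitaxel and 299 to 370 CPM after vehicle, highest in paclitaxel replicate 2 and lowest in paclitaxel replicate 3, and all 10 were detected. The summed level of 7 endothelial genes was 161 to 248 CPM after paclitaxel, with the same libraries at the ends, and 171 to 228 CPM after vehicle. The 5 perivascular macrophage genes summed to 2.73 to 4.88 CPM after paclitaxel and 1.54 to 3.98 CPM after vehicle, and 0 of them had enough reads to be tested. Blood leukocyte genes summed to 4.09 to 7.02 CPM after paclitaxel and 2.95 to 9.76 CPM after vehicle. Of 10 such genes 9 were in the table and 7 were detected, and the T cell gene Cd3d and the B cell gene Ms4a1 were at 0 in every library. The part of these cells in the immune values was not tested, and in bulk tissue fewer cells of a type and less RNA per cell cannot be told apart.

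Paclitaxel replicate 2, the highest library for Psmb8 and Psme1, was also the highest for several interferon-inducible genes of MHC class I. H2-K1, a class I heavy chain, was at 32.3, 63.4, 31.2, 32.2 and 34.9 CPM after paclitaxel and at 34.9, 40.2, 38.1, 34.7 and 37.3 CPM after vehicle. B2m, the light chain, was at 83.0, 110.5, 62.4, 75.6 and 81.3 CPM after paclitaxel and at 87.9, 71.5, 72.6, 65.1 and 68.2 CPM after vehicle. In both genes 1 library of the paclitaxel group stood above all others, and the groups overlapped (log2 fold change 0.08 for H2-K1 and 0.18 for B2m, edgeR adjusted p = 0.96 and 0.83).

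**Figure D2:**
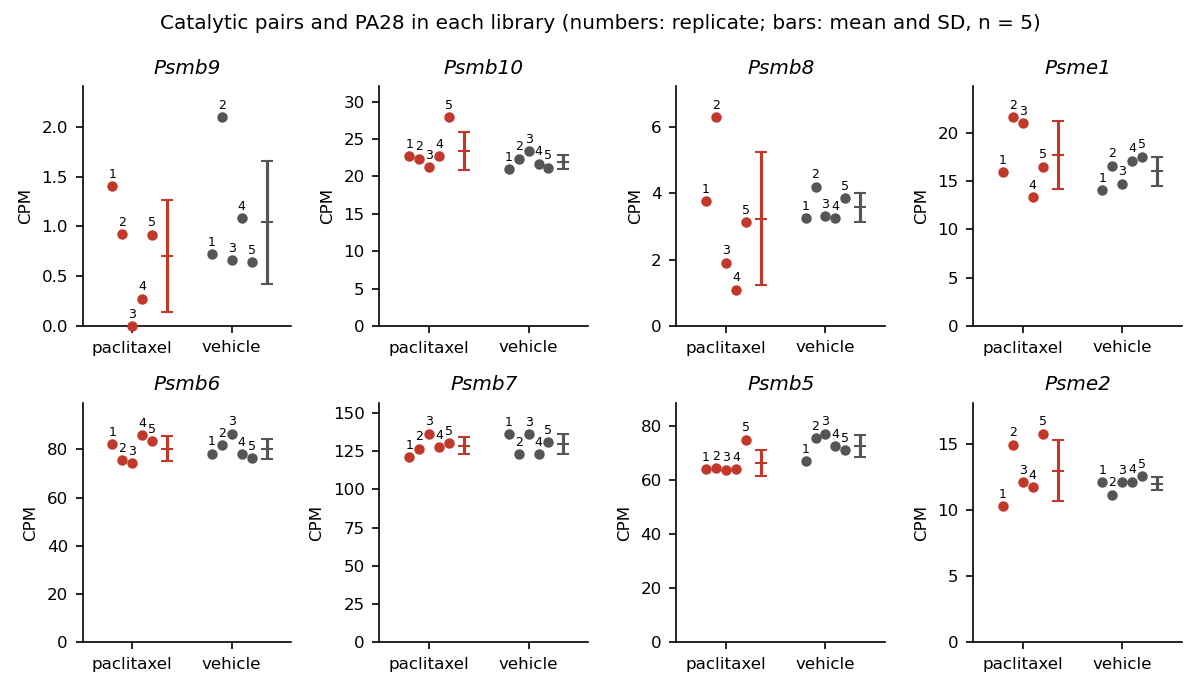
CPM (vertical axes, from 0) of the immune β subunits Psmb9, Psmb10 and Psmb8 above their constitutive partners Psmb6, Psmb7 and Psmb5, and of Psme1 and Psme2, in each library. Points are libraries with their replicate number, paclitaxel left and vehicle right, with the mean and SD (n = 5) beside them. Paclitaxel Psmb8 runs from 1.09 to 6.29 CPM around vehicle values of 3.25 to 4.19 CPM, while Psmb6 and Psmb7 overlap closely.

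Shares within each catalytic pair were set per kilobase of transcript, since counts of different genes compare only per length. Psmb8 made up 3.12, 5.11, 1.62, 0.931 and 2.24% of its pair with Psmb5 in the paclitaxel libraries and 2.61, 2.97, 2.31, 2.41 and 2.89% in the vehicle libraries. The means were 2.61% ± 1.61 with paclitaxel and 2.64% ± 0.29 with vehicle (SD, n = 5 each), and the groups overlapped. Psmb9 made up 0.51% ± 0.41 of its pair with Psmb6 with paclitaxel and 0.76% ± 0.43 with vehicle. Psmb10 made up 13.9% ± 1.38 of its pair with Psmb7 with paclitaxel and 13.01% ± 0.75 with vehicle. The constitutive gene was the major mRNA of every pair in both groups. The levels of these shares depend on the transcript lengths used: with the longest annotated transcript the Psmb10 share was 28.3% with paclitaxel and 26.9% with vehicle. With the median of the protein-coding transcripts, a choice made after the data were seen, the Psmb8 share was 4.18% with paclitaxel and 4.25% with vehicle, and the Psmb9 share 1.29% with paclitaxel and 1.91% with vehicle. That median was 840 bases for Psmb8 and 529 for Psmb9, against matched lengths of 1628 and 1352, so these shares rest on shorter annotated transcripts.

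No subunit of the 19S regulatory particle passed the test. Its 17 subunits had a median log2 fold change of -0.001, with 8 higher and 9 lower in value, and all 17 intervals lay between 0.84-fold and 1.197-fold. Of the 6 ATPases, which form the unfolding ring, 3 were higher and 3 lower in value. Psmc3, one of these ATPases, had the lowest p of all members. It was at 134, 130, 126, 129 and 148 CPM after paclitaxel and at 138, 143, 161, 139 and 146 CPM after vehicle. Paclitaxel replicates 1 to 4 lay below all vehicle libraries and replicate 5 above all but vehicle replicate 3. The log2 fold change was -0.13 (SE 0.06, edgeR adjusted p = 0.80), with a range from -0.17 without paclitaxel replicate 5 to -0.09 without vehicle replicate 3, and with -0.08 once corrected for GC content and length (unadjusted p = 0.13).

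Psmc6, also an ATPase, had the highest log2 fold change of the 19S subunits. Its level was 75.5, 71.5, 86.0, 77.2 and 71.2 CPM after paclitaxel and 85.3, 65.7, 70.4, 64.7 and 69.7 CPM after vehicle. Paclitaxel replicate 3 and vehicle replicate 1 stood highest, and the other vehicle libraries were below every paclitaxel library. The log2 fold change was 0.10 (SE 0.08, edgeR adjusted p = 0.84), 0.18 without vehicle replicate 1, 0.05 without paclitaxel replicate 3 and -0.0063 once GC content and length were corrected for. Psmc1 was at 188, 182, 190, 207 and 201 CPM after paclitaxel and at 193, 183, 195, 160 and 184 CPM after vehicle (log2 fold change 0.08, SE 0.06, edgeR adjusted p = 0.83). Its lowest library was vehicle replicate 4, and without it the value was 0.04. Psmc5 averaged 250 ± 11.5 CPM after paclitaxel and 255 ± 20.5 CPM after vehicle (SD over n = 5 in each, log2 fold change -0.03).

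Of the 11 non-ATPase subunits, 5 were higher and 6 lower in value, from -0.09 to 0.07 on the log2 scale. Psmd4, the ubiquitin receptor also called Rpn10, had the lowest p among them. Psmd4 was at 108, 104, 105, 111 and 111 CPM after paclitaxel and at 108, 111, 123, 111 and 119 CPM after vehicle. All 5 paclitaxel libraries lay below the vehicle mean of 115 CPM, but 3 vehicle libraries lay within the paclitaxel range (log2 fold change -0.09, SE 0.06, edgeR adjusted p = 0.81). Corrected for GC content and length, the value was -0.04 (unadjusted p = 0.39). Psmd14, the deubiquitinase that removes the ubiquitin chain, had a log2 fold change of 0.06, and Psmd2 and Psmd1, the large scaffold subunits, of -0.01 and -0.001.

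The alternative cap and the inhibitor had small positive values. Psme4, which encodes PA200, a cap found in nuclei, was at 70.1, 59.9, 69.8, 62.2 and 67.3 CPM after paclitaxel and at 69.8, 59.9, 59.6, 59.7 and 56.4 CPM after vehicle. Vehicle replicate 1 stood among the highest paclitaxel libraries, and the other vehicle libraries lay at about the lowest paclitaxel value or below it. The log2 fold change was 0.11 (SE 0.07, edgeR adjusted p = 0.82), and 0.17 without vehicle replicate 1 (unadjusted p = 0.0263). Corrected for GC content and length it was 0.05. Psmf1, the proteasome-binding protein PI31, was at 41.7, 41.2, 39.7, 42.0 and 37.4 CPM after paclitaxel and at 39.4, 37.9, 36.3, 39.7 and 34.99 CPM after vehicle. Its paclitaxel replicates 1, 2 and 4 lay above all vehicle libraries (log2 fold change 0.10, SE 0.08, edgeR adjusted p = 0.83). The nuclear PA28 form Psme3 had a log2 fold change of -0.02.

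No dedicated assembly factor passed the test. The 7 genes had a median log2 fold change of 0.02, with 5 higher and 2 lower in value. Psmg3, which with Psmg4 helps build the α ring, was at 6.09, 7.21, 5.52, 7.64 and 8.81 CPM after paclitaxel and at 6.33, 8.73, 9.24, 5.64 and 8.46 CPM after vehicle. The groups overlapped over most of their range (log2 fold change -0.12, SE 0.18, edgeR adjusted p = 0.92). Leaving out single libraries gave -0.23 without paclitaxel replicate 5 to -0.045 without paclitaxel replicate 3. Psmd10, the 19S chaperone gankyrin, averaged 19.3 ± 1.28 CPM after paclitaxel and 18.3 ± 2.12 CPM after vehicle (SD over n = 5 in each, log2 fold change 0.07). Intervals of the 4 Psmg genes were wide, from 0.713-fold to 1.38-fold, while those of the 19S chaperones Psmd5, Psmd9 and Psmd10 lay between 0.884-fold and 1.22-fold.

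Tissue-restricted subunits were at the limit of detection. Psma8, the α subunit of the testis, had 2, 1, 1, 1 and 2 counts in the paclitaxel libraries and 0, 0, 0, 0 and 1 in the vehicle libraries. Psmb11, the catalytic subunit of the thymus, had 1 count in 1 paclitaxel library and 1 count in 1 vehicle library. Every value is under the floor of 3 counts, so no fold is given. With no filter, Psma8 reached an unadjusted p of 0.0183 in edgeR (adjusted p = 0.82). It was the only member under 0.05 in that fit, beside 5.52% of all genes.

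Per kilobase of transcript, the classes of subunits differed in level and the groups did not separate. The median over the 14 constitutive 20S genes was 59.7 with paclitaxel and 57.7 with vehicle (CPM per kilobase), and over the 17 19S genes 56.99 with paclitaxel and 58.6 with vehicle. The 4 tested immune genes had medians of 15.3 with paclitaxel and 14.04 with vehicle, and the 7 assembly factors of 9.35 with paclitaxel and 9.22 with vehicle. Computed in each library, the 20S median was 4.12 ± 0.53 times the immune median with paclitaxel and 4.21 ± 0.42 times with vehicle (SD, n = 5 each). By group means this immune median fell between the PA28 genes Psme1 and Psme2, so the ratio does not describe the immune β subunits. With vehicle, the constitutive partner was at 6.70 times Psmb10, 36.9 times Psmb8 and 130 times Psmb9, which was below the filter. With paclitaxel these ratios were 6.21, 37.2 and 193. Psmc5 was the highest member on this scale, at 190 with paclitaxel and 194 with vehicle. The lowest tested was Psmb8, at 1.99 with paclitaxel and 2.19 with vehicle. With the median length of the protein-coding transcripts Psmd2 was above Psmc5, at 403 with vehicle. That median was 659 bases for Psmd2, against 2981 for its matched transcripts, so the value of 403 rests on short annotated transcripts.

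Subunits that occur in equal numbers in the assembled core thus had unequal mRNA levels on this scale, from Psma2 (26.4 with paclitaxel, 25.7 with vehicle) to Psmb7 (111 with paclitaxel, 112 with vehicle). Single levels depend on the transcript chosen. With the median length of the protein-coding transcripts, Psma3 was at 91.5 CPM per kilobase with vehicle in place of 27.6, and the 19S subunit Psmd11 at 61.3 in place of 15.4. That median was 859 bases for Psma3 and 716.5 for Psmd11, against matched lengths of 2846 and 2848. Assembly factors moved as well. With this median and vehicle, Psmd9 was at 33.0 in place of 9.35, on 735 bases against 2597, and Psmd5 at 16.8 in place of 9.47. Psmg2 was lower, at 7.71 in place of 8.59. With the longest transcripts, Psmb7 was at 45.6 with vehicle in place of 112. Among the catalytic subunits the vehicle levels were 80.95 for Psmb5, 100.4 for Psmb6 and 112 for Psmb7, but with the longest transcripts Psmb7 was the lowest of them rather than the highest.

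**Figure D3:**
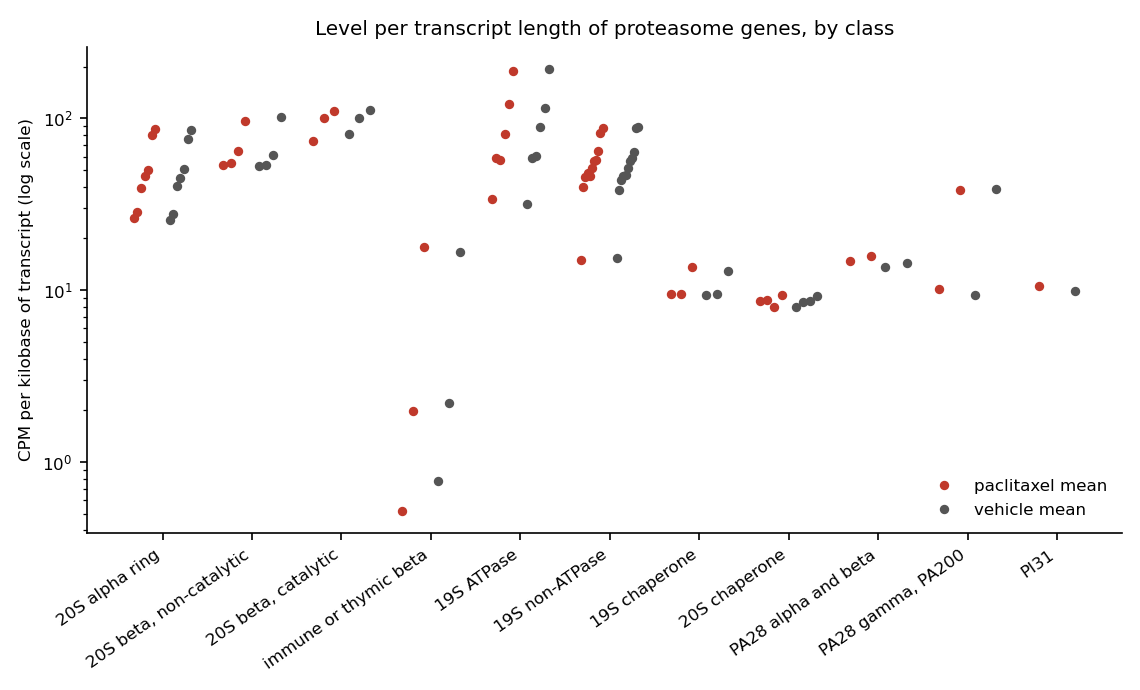
Mean CPM per kilobase of transcript (vertical axis, log scale) of the members in each class (horizontal axis), with paclitaxel left of vehicle and 1 point a gene, for the 45 tested members and Psmb9. With vehicle and the matched lengths, constitutive 20S genes lie between 25.7 and 112 and assembly factors between 7.997 and 12.97. The immune β subunits reach down to Psmb9 at 0.521 with paclitaxel and 0.77 with vehicle.

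The structural subunits varied little between libraries. The within-group coefficient of variation (CV, the SD over the mean) had a median of 5.73% over the 31 subunits of the 20S and 19S particles, from 3.80% for Psma2 to 11.1% for Psmb2. Over all 4591 tested genes in the same range of level, 43.3 to 265 CPM, the median was 7.50%, and 28 of the 31 subunits were below it. Counting error alone gives a median of 5.00% for the 31 subunits and 4.89% for that range. The difference in spread was not tested. The 4 tested immune genes had a median CV of 14.7%, from 8.65% for Psmb10 to 42.4% for Psmb8, and their counting error had a median of 11.8%. For Psmb8 counting error alone gives 24.3%.

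**Figure D4:**
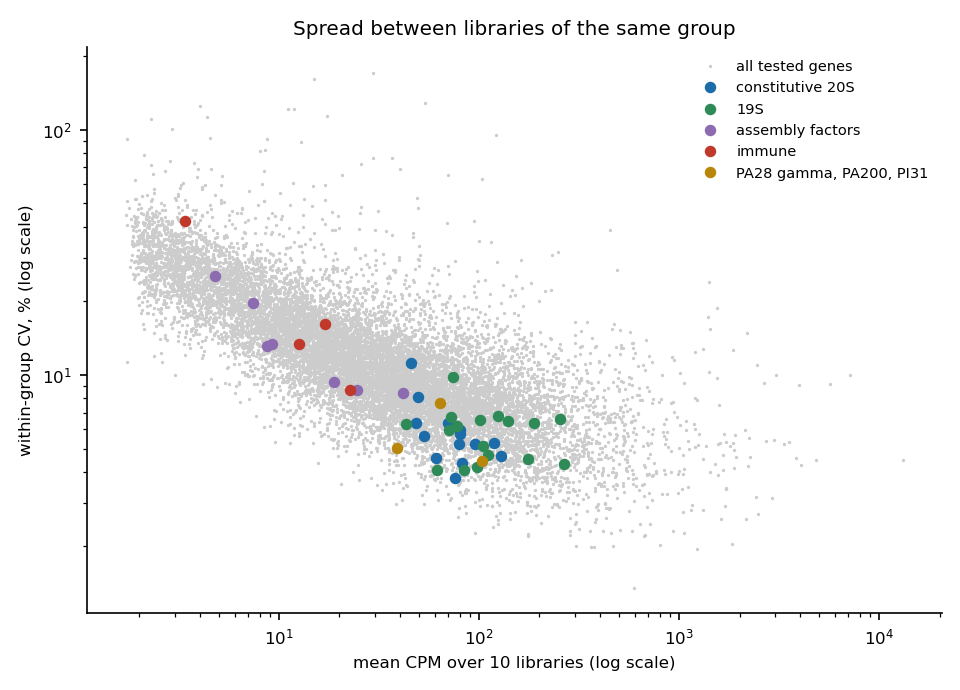
Within-group CV in percent (vertical axis) against mean CPM over the 10 libraries (horizontal axis), both on log scales, for all tested genes (grey) and the 45 members (coloured by class). Structural subunits lie in the lower part of the cloud, with a median of 5.73%, and Psmb8 lies highest of the members, at 42.4%.

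Other genes of the pathway were described from lists. Of 3 subunits and assembly genes with other names, 1 was higher and 2 were lower in value: the 19S ubiquitin receptor Adrm1 (log2 fold change -0.05), the small 19S subunit Shfm1 (-0.06) and the 20S maturation factor Pomp (0.01). Of 15 shuttling factors, deubiquitinases and regulators, 7 were higher and 8 lower in value. Zfand5, a zinc finger protein that stimulates the proteasome, was at 151, 154, 185, 166 and 150 CPM after paclitaxel and at 158, 146, 142, 141 and 148 CPM after vehicle (log2 fold change 0.13, SE 0.06, edgeR unadjusted p = 0.0445, adjusted p = 0.80). It was highest in paclitaxel replicates 3 and 4, and the groups overlapped. Vcp, the segregase that extracts ubiquitinated proteins, had a log2 fold change of -0.08, and the shuttle Ubqln2 of 0.08.

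Of the 5 ubiquitin and E1 genes, 1 was higher and 4 were lower in value, among them the polyubiquitin gene Ubb (log2 fold change -0.07) and the activating enzyme Uba1 (-0.06), and none passed the test. Of 6 genes of the transcriptional response to proteasome inhibition, 2 were higher and 4 lower in value, and 2 of the lower reached an unadjusted p under 0.05, beside 3.12% of all tested genes. These were Mafg, a partner of NFE2L1 and NFE2L2, at 32.0 ± 3.51 CPM after paclitaxel and 37.9 ± 2.90 CPM after vehicle (log2 fold change -0.24, SE 0.09, unadjusted p = 0.013), and Maff, at 1.66 ± 1.46 CPM after paclitaxel and 2.93 ± 0.77 CPM after vehicle (-0.79, unadjusted p = 0.0483), with SD over n = 5 in each group and an edgeR adjusted p of 0.79 for Mafg and 0.80 for Maff. Maff was higher in paclitaxel replicate 3, at 4.25 CPM, than in every other library. Its other paclitaxel libraries, at 0.819 to 1.41 CPM, lay near the floor of 3 counts, and replicate 4 was on it. Nfe2l1 itself was at 535 ± 31.3 CPM after paclitaxel and 564 ± 13.96 CPM after vehicle (SD over n = 5 in each, log2 fold change -0.08, edgeR adjusted p = 0.81). Of 12 tested genes of MHC class I presentation and interferon signalling, 8 were higher and 4 lower in value with a median of 0.04, and none reached an unadjusted p under 0.05 in edgeR. After B2m, the lowest p belonged to the disulfide isomerase Pdia3 (log2 fold change -0.06) and the peptide-trimming enzyme Erap1 (0.11).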

How the data were processed

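RNA from 10 lumbar spinal cord samples was sequenced, and the authors deposited 1 table of expected counts per gene, estimated with RSEM and without depth scaling. The submitters' processing notes name STAR, RSEM, edgeR 4.2.0 and build mm10. Annotation release, strand setting and further versions are not stated there. All expected counts were rounded to whole numbers before testing, since 5.04% were fractional. Libraries of a group differed from each other by more than counting noise (chi-square over its degrees of freedom 1.59 to 6.55).

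Genes were filtered with filterByExpr (edgeR 4.0.16, R 4.3.3, minimum count 10, minimum total 15), scaled with TMM and tested by edgeR's quasi-likelihood F-test (robust, no covariates, two-sided), with Benjamini-Hochberg adjustment over all tested genes and a threshold of 0.05. Standard errors were derived from F. The fit was also run on counts simulated from its own estimates, as a check of the code and not of the results. Lengths are those of the GENCODE M21 transcripts matched to the RefSeq accessions in the table (48 of 48 members). Coordinates and promoters are those of RefSeq on GRCm38, the assembly that mm10 names. Intervals are at 95% and floors cover counting error only.

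The members, gene lists and alternatives were chosen with earlier results of these data known. Genes were named by a rule: the immune genes, their constitutive partners, up to 4 members of lowest p in each direction and those of highest and lowest level per length. They also include the member of lowest p in each class, members below the filter and up to 3 genes of lowest p in each pathway list. One gene that the rule names in a pathway list is not reported here. Further members with a single value, and Tap1, H2-K1 and Hspa1b, were added after values were seen. Alternatives were other scalings and filters, DESeq2 1.42.0, limma-voom (limma 3.58.1), the replicate number as a block, a loess correction for GC content and length, other transcript lengths, and leaving out libraries.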

Additional observations from a re-analysis of the deposited data

Results flagged for a closer look

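In 11 of 106 groups of 5 values checked, the highest or lowest library stood apart from the others by more than 0.71 of the group's range. Chance alone flags about 1 in 20 groups where values are independent and normally distributed. Here the groups share the same libraries, and no share over all tested genes was computed. The count is therefore not read as a trait of the members. In paclitaxel replicate 5, Psmb5 was at 75.1 CPM, the next highest library at 64.5, Psmb10 at 27.9 CPM (next 22.7) and Psmd7 at 111 CPM (next 100.1). In paclitaxel replicate 1, Psmd12 was at 105 CPM (next 97.9), and in paclitaxel replicate 2 Psmd11 was at 37.5 CPM, below the next lowest at 42.8. In vehicle replicate 1, Psmc6 was at 85.3 CPM (next 70.4) and Psme4 at 69.8 CPM (next 59.9). In vehicle replicate 3, Psmc5 was at 290.4 CPM (next 254) and Psmd2 at 282 CPM (next 264). Psmd1 was at 183 CPM in vehicle replicate 4 (next 175), and Psmc2 at 92.9 CPM in vehicle replicate 2, below the next lowest at 106.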

How the results depend on the processing

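In each of 21 alternatives 0 members passed an adjusted p of 0.05. Class medians ran from -0.0085 to 0.0386 (20S), -0.0186 to 0.0195 (19S), 0.0327 to 0.1645 (immune) and -0.0257 to 0.0961 (assembly). The number of members at an unadjusted p under 0.05 was 1 of 48 with no filter on low counts, beside 5.52% of all genes in that fit. On leaving out each library it was between 0 and 4 of 45. It was 2 without paclitaxel replicate 5 (Psmb5 and Psmc3), beside 6.80% of all genes. Without vehicle replicate 1 it was 4 (Psmb5, Psmc3, Psmc6 and Psme4), beside 9.78%, and without vehicle replicate 4 it was 1 (Psmc3), beside 4.61%. The number of all genes at an unadjusted p under 0.05 was 806 in the main fit. It ran from 515 to 1299 with each library left out, and was 508 without paclitaxel replicate 3 and vehicle replicate 4 together. DESeq2 and the fit with the replicate number as a block each called 1 gene over all genes, no member in either case. Same-numbered libraries correlated between -0.10 and 0.14 and 2 of 5 correlated best with their own number, so the numbers were not taken as pairs. With each library left out, the medians of the 20S, 19S and assembly classes and the difference in Psmb8 share (-0.657 to 0.386 percentage points) crossed 0, members lower in value numbered 14 to 22, and 4 of the 18 tested genes named by rule changed sign: Psmb8 (-0.5031 to 0.0852), Psmb6 (-0.0175 to 0.0322), Psmb7 (-0.0359 to 0.0079) and Psmc5 (-0.0456 to 0.0242). Psmb8 was 0.0226 without paclitaxel replicate 3 and vehicle replicate 4 together, and Psmc6 -0.0063 corrected for GC content and length. Other values that moved by over 1.5 times include Psmd10 (0.0248 to 0.134) and Psmb4 (-0.105 to -0.0482) with each library left out, Psma6 (0.0468) without both libraries, and Psmb10 (0.1633), Psmb6 (0.0745), Psmb4 (-0.0499) and Psmd10 (0.0228) corrected for GC content and length, beside those given above. The cause was not tested. With the longest transcripts the Psmb10 share was 26.9% with vehicle, and the ratio of the 20S median to the immune median 4.74. With the median of protein-coding transcripts the vehicle shares of Psmb9 and Psmb8 were 1.91% and 4.25%. Intervals lay between 0.8-fold and its reciprocal for 1 of 4 tested immune genes and 3 of 7 assembly genes, where counting error alone gives a median CV of 11.8% and 14.8%, against 5.00% in the structural subunits. The part of depth in those widths was not tested.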
